A study of Mus musculus with 10 samples.

Results

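The transcript levels of 10 mouse genes of fat storage were examined in regenerating liver with and without a liver knockout of the chromatin remodelling gene Arid1a. The genes are Pparg, the perilipin genes Plin2, Plin3, Plin4 and Plin5, the CIDE family genes Cideb and Cidec, Hsd17b13, Pnpla2 and Cd36. They were chosen by name, as the rows of the deposited table that carry these symbols. All 10 were found, once each, among 23847 loci. Of the 10, 9 encode proteins that coat droplets, remodel them, break down their fat or take up fatty acids, and Pparg encodes a transcription factor.

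The mice carried the Arid1a Fl/Fl genotype, in which both copies of Arid1a are flanked by target sites of Cre recombinase. The WT group was Arid1a Fl/Fl alone. The KO group was Arid1a Fl/Fl; Alb-cre. Alb-cre is a transgene whose albumin promoter drives Cre in hepatocytes and in the embryonic liver cells that give rise to them, so that Kupffer, endothelial and stellate cells keep the gene. All were on a mixed C57/B6 and 129 background and at postnatal day 90, and the livers were collected and frozen 40 h after partial hepatectomy, an operation that takes out most of the liver. There were 3 libraries per genotype. A further 4 libraries of livers from before surgery, 2 per genotype, were not analysed here, and the change brought by hepatectomy itself was therefore not measured. It is not stated in the labels whether each library stands for its own animal, so p-values measure only the spread between libraries, which may be technical.

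Lipid droplets are stores of triglyceride and cholesterol ester inside cells, enclosed by a phospholipid monolayer and a coat of proteins. Regenerating liver accumulates such droplets for a time before its hepatocytes divide, fed largely by fatty acids from adipose tissue. Perilipins coat droplets and control access of lipases, CIDE proteins act in droplet fusion, in droplet growth and in the lipidation of very-low-density lipoprotein, and Pnpla2 encodes ATGL, the lipase that removes the first fatty acid from triglyceride. PPAR-gamma, the product of Pparg, is a nuclear receptor that binds DNA with RXR, is abundant in fat cells, and in fatty liver activates Cidec, Cd36 and Plin4, among other genes.

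Nuclear receptors of this kind recognise copies of the hexamer AGGTCA, and PPAR with RXR binds a pair of them on the same strand with any single base between them. Listed start sites of the members were read on GRCm38.p6, the assembly of mm10, with the 250 bases before each start. All 10 members had at least 1 window, 14 in all. A window before a listed start can still lie within the gene. The RefSeq span of Pparg begins at 115360879, before its first window, and that of Plin2 ends at 86670217, inside its window. The windows below belong to the members whose KO and WT values lay farthest apart, Pparg, which has 3 start sites, and Hsd17b13, and to Plin2, the droplet coat gene with the highest level in WT. Capitals mark AGGTCA on either strand, read as TGACCT where it lies on the opposite one, and each window is written 5′ to 3′ on the strand of its gene.
Pparg start 1, chr6:115360894-115361143, plus strand: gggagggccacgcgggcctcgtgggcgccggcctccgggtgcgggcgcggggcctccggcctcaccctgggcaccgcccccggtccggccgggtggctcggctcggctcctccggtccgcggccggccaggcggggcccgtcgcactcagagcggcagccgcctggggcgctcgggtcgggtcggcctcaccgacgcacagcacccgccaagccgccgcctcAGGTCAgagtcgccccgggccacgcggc
Pparg start 2, chr6:115362099-115362348, plus strand: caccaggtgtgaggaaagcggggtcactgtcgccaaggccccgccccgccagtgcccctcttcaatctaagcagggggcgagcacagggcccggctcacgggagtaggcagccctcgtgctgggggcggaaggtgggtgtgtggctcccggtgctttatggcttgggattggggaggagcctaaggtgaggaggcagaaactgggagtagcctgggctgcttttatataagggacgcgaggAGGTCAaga
Pparg start 3, chr6:115421816-115422065, plus strand: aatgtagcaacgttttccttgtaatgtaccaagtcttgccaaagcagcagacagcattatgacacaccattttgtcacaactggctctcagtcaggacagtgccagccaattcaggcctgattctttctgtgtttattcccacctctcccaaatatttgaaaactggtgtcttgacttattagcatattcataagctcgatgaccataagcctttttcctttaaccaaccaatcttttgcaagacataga
Hsd17b13, chr5:103977389-103977638, minus strand: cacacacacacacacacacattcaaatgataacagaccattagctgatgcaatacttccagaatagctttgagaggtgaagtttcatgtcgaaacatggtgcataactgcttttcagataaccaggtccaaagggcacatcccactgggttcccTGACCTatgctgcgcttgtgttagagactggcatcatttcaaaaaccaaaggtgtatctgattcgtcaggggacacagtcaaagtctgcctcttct
Plin2, chr4:86670060-86670309, minus strand: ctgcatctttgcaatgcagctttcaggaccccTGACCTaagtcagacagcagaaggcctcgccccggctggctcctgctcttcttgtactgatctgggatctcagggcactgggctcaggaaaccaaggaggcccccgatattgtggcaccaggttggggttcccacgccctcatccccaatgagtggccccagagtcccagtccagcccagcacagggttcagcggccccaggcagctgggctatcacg
The hexamer stood in 6 of the 14 member windows, those of Pparg starts 1 and 2, Plin2, Plin5, Hsd17b13 and Cd36, and in 14.0% of all 32851 windows of this length in the table of promoters. Its first base lay 28 bases before the start at Pparg start 1, 9 bases before it at start 2, 218 at Plin2 and 96 at Hsd17b13. The spaced pair (AGGTCA, any base, AGGTCA) stood in 0 of the 14 windows and in 0.0335% of all. Every spaced pair also counts as a match to the hexamer. The match is one of letters only, and binding was not measured. For Cd36 and Pnpla2 the bases just after the listed start were found in no GENCODE transcript of the gene, so these start sites are less certain.

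Levels are given in FPKM, that is fragments divided by transcript length and by the fragments mapped in a library, which allows levels of different genes to be set side by side. FPKM summed to between 409142 and 495209 per library. Read totals are unknown, and the low values put the relative depth between 0.844 in KO replicate 3 and 1.22 in WT replicate 3, with WT replicate 1 as 1. Arid1a itself averaged 8.54 ± 0.121 FPKM in WT against 5.38 ± 0.882 in KO (SD, n = 3 each), all KO libraries being lower (exact permutation p = 0.1). Cycling-cell transcripts set KO replicate 2 apart from the other KO libraries. For 10 such genes the FPKM summed to 16.3, 7.39 and 43.8 in WT, in the order of the replicate numbers, and to 281, 12.3 and 442 in KO.

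The comparison of KO with WT asks how the genes of fat storage differ between regenerating livers of Arid1a Fl/Fl mice with and without Alb-cre. How complete the loss of Arid1a from hepatocytes was cannot be read from its level in bulk liver. Pparg was lower in every KO library, with a WT mean 4.85 times the KO mean, and Hsd17b13 was higher in every KO library, with a KO mean 3.22 times the WT mean. The perilipin genes, Pnpla2 and Cd36 overlapped between genotypes, and so did Cidec. None of the 10 passed an adjusted p of 0.05 in limma over all 10956 genes tested, a threshold that 0.119% of genes passed, 0.0183% above and 0.1% below WT. At an unadjusted p under 0.05 there were 2 of 10, Pparg below and Hsd17b13 above WT, against 15.2% of all genes. The ranges of the genotypes were separate for 3 of 10, Pparg, Cideb and Hsd17b13, against 22.1% of all genes, so that this count is near the background. KO lay below WT for 2 of these, against 5.44% of all genes, and above for 1, against 16.7%. On the scale of log2(FPKM + 1) the median difference of the 10 was -0.07, beside 0.15 for all genes, and 4 of the 10 lay above the latter. The difference was above 0 for 4 of the 10 and for 69.7% of all genes. The balance of directions over all genes moved with the scaling. As deposited, 1231 genes lay above WT and 437 below with an unadjusted p under 0.05. After median-of-ratios rescaling these were 587 and 740, and the median of all genes was 0.01. With WT replicate 2, KO replicate 1 or KO replicate 3 left out the median of the 10 was positive, at 0.16, 0.02 and 0.10. It was -0.16 without KO replicate 2, and -0.19 after median-of-ratios rescaling as after quantile normalization.

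**Figure D1:**
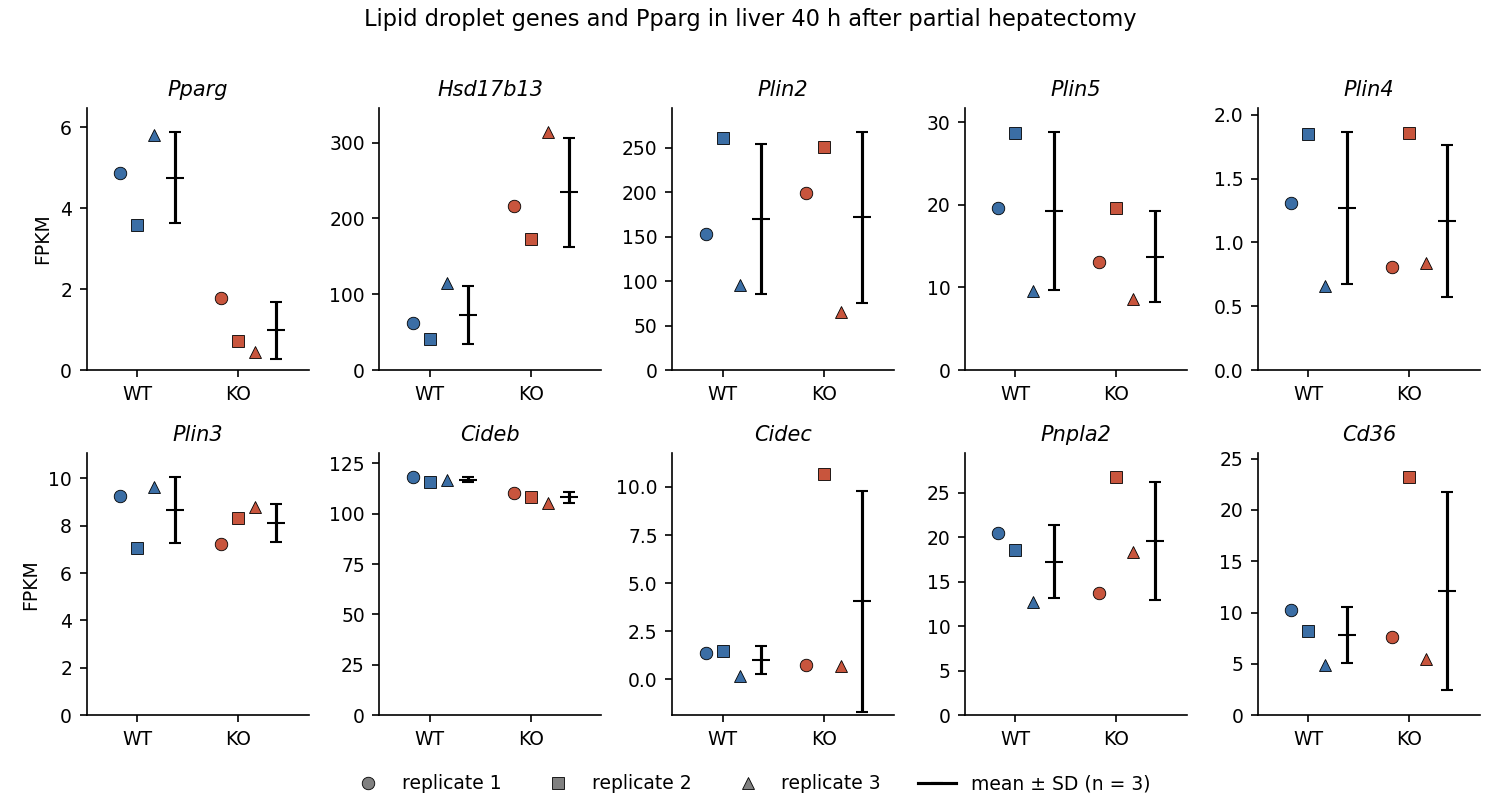
FPKM of the 10 genes (y axis, each panel with its own scale) in the 3 WT (blue) and 3 KO (red) libraries, with symbols for the replicate number and bars for the mean ± SD (n = 3). Pparg and Hsd17b13 separate the genotypes by the widest margins, Cideb separates them narrowly, and KO replicate 2 (square) holds the highest KO value of Cidec, Cd36, Pnpla2, Plin2, Plin4 and Plin5.

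Pparg (chromosome 6, 115361221 to 115490401, mm10) was 4.87, 3.57 and 5.81 FPKM in WT replicates 1, 2 and 3, and all values by library are listed in that order throughout. In KO it was 1.78, 0.714 and 0.449 FPKM. The lowest WT library thus held 2.01 times the level of the highest KO library. The WT mean was 4.75 ± 1.13 and the KO mean 0.981 ± 0.703 (SD, n = 3 each). On the log2 scale the difference was -1.58 (SE 0.28, 95% interval -2.25 to -0.90). The adjusted p was 0.133 in limma. A two-sided exact permutation test gave p = 0.1, which is the lowest value possible with 3 against 3. By p, Pparg ranked 77 of 10956 genes, and 1.1% of genes had a log2 difference below -1.5. Without KO replicate 2 the WT mean was 4.27 times the KO mean, and without KO replicate 1 the KO mean was 0.582. The difference kept its direction under all 14 alternatives that could be computed for it, from -2.34 to -1.38, with adjusted p from 0.0837 to 0.457. The table holds 1 value for the locus, so the transcripts from the 3 start sites, among them those of the fat-cell isoform and the widely expressed one, cannot be told apart.

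In bulk liver, fewer cells of a type and less RNA per cell cannot be told apart. Of 7 fat-cell marker genes, Adipoq, Lep, Plin1 and Retn were listed at 0 in all 6 libraries, and Adig and Cfd stayed under 0.4 FPKM where they were listed at all. The remaining one, Fabp4, a fatty acid carrier also made by endothelial cells and macrophages, was 4.26, 2.53 and 4.53 FPKM in WT against 4.49, 9.45 and 8.74 in KO. The 10 Kupffer cell and macrophage markers summed to between 84.8 and 120 FPKM in WT and between 90.7 and 150 in KO, and the 10 markers of sinusoidal endothelium to between 83.2 and 108 and between 77.3 and 128. The 10 stellate cell and fibroblast markers summed to between 160 and 172 FPKM in WT and between 113 and 183 in KO. Sums of this kind follow their most abundant genes. Dcn alone gave 75.1, 79.1 and 87.0 FPKM of the stellate sums in WT and 67.1, 96.1 and 47.4 in KO. The 6 bile duct markers, of which 2 passed the filter, summed to between 12.1 and 21.1 and between 12.5 and 29.0. The 10 hepatocyte markers, all present, summed to between 53713 and 57821 FPKM in WT and between 47493 and 57040 in KO. Of the 40 markers of macrophages, endothelium, stellate cells and hepatocytes, 0 passed the adjusted threshold in limma. At an unadjusted p under 0.05 the macrophage receptor Marco and the stellate cell gene Reln were above WT, and the stellate cell genes Ecm1 and Colec11 were below it, all 4 named after their values were seen. These 4 of 40 stand beside 15.2% of all genes at that threshold. The part of cell numbers in the level of Pparg was not tested.

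The genes whose values over the 6 libraries, each centred on its own mean, lay closest to those of Pparg included Csrp3, Cyp2d40, Prom2 and Cd1d1. The measure was the root mean square difference of log2(FPKM + 1), which ran from 0.18 for Csrp3 to 0.27 for Cd1d1. Csrp3, a LIM domain protein known from muscle, was 6.19, 4.34 and 7.80 FPKM in WT against 2.74, 0.621 and 0.459 in KO. In Csrp3, as in Pparg, WT replicate 2 was the lowest WT library and KO replicate 1 the highest KO library. Such likeness follows from choosing the genes by these same values.

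Of the partners and relatives of PPAR-gamma, 17 of 18 genes were tested. Among them 0 passed the adjusted threshold in limma and 1 passed an unadjusted p of 0.05, against 15.2% of all genes. That gene was Ppara, the receptor that drives fatty acid oxidation in hepatocytes, with 35.2, 27.7 and 29.6 FPKM in WT against 21.8, 25.5 and 18.0 in KO. In limma its adjusted p was 0.308, for a log2 difference of -0.49. Every KO library of Ppara lay below every WT library. Ppard, which encodes PPAR-delta, was 1.80 ± 0.266 FPKM in WT against 2.31 ± 0.0334 in KO. Ppargc1a, which encodes the coactivator PGC-1-alpha, was 3.88 ± 1.09 and 2.24 ± 0.783, and Med1, which encodes a Mediator subunit that binds nuclear receptors, was 8.99 ± 0.740 and 11.9 ± 2.38. Rxra, named after its values were seen, encodes the main RXR of liver and was 72.1 ± 10.1 FPKM in WT against 81.2 ± 17.7 in KO.

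Hsd17b13 (chromosome 5, 103955442 to 103977388, mm10) encodes a dehydrogenase of the lipid droplet surface that is largely restricted to hepatocytes and is raised in fatty liver. It was 61.9, 41.4 and 115 FPKM in WT against 216, 173 and 314 in KO. The lowest KO library held 1.51 times the level of the highest WT library. The log2 difference was 1.76 (SE 0.40, 95% interval 0.80 to 2.71), with an adjusted p of 0.182 in limma and an exact permutation p of 0.1. Under all 15 alternatives it stayed positive, from 1.42 to 2.14, with adjusted p from 0.0632 to 0.528. A log2 difference above 1.5 was found for 1.62% of genes tested. Among the 10 genes it ranked 3 by level in WT and 1 by level in KO. Its neighbour and close relative Hsd17b11, named after its values were seen, was 50.1 ± 10.8 FPKM in WT against 49.5 ± 17.5 in KO.

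**Figure D2:**
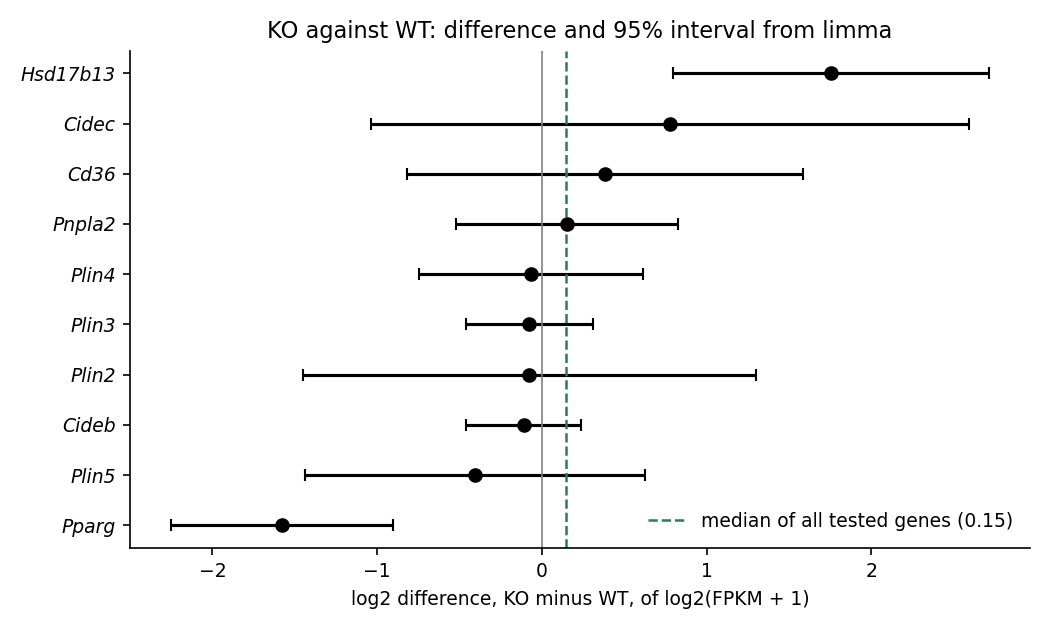
Log2 difference of KO minus WT on the scale of log2(FPKM + 1) (x axis) for the 10 genes, with the 95% interval from limma (n = 3 each), beside 0 (grey) and the median of all tested genes, 0.15 (dashed green). The intervals of Pparg and Hsd17b13 leave out 0, and those of the other 8 genes include it.

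The perilipin genes were expressed at very different levels, and the genotypes overlapped for all 4. Plin2 (chromosome 4, 86656565 to 86670059), the main droplet coat protein of hepatocytes, was 153, 261 and 95.1 FPKM in WT against 199, 251 and 64.7 in KO. The means of 170 ± 84.0 and 172 ± 96.1 (SD, n = 3 each) differ by far less than the libraries do, and the values spanned 4.03-fold over the 6 libraries. The log2 difference of Plin2 was -0.08, with a 95% interval of -1.45 to 1.30, so that differences of more than 2-fold in either direction are within it. Its sign depended on single libraries, at 0.29 without WT replicate 2 and 0.51 without KO replicate 3. Plin2 made up between 78.1% and 90.4% of the summed FPKM of the 4 perilipins.

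Plin5 (chromosome 17, 56111601 to 56117548), the perilipin of oxidative tissues that brings droplets into contact with mitochondria, was 19.6, 28.6 and 9.52 FPKM in WT against 13.0, 19.6 and 8.54 in KO. Its log2 difference was -0.41 (95% interval -1.44 to 0.62, adjusted p = 0.664 in limma), and the genotypes overlapped. It was -0.07 without WT replicate 2, -0.82 without WT replicate 3, -0.68 without KO replicate 2 and -0.13 without KO replicate 3. Plin4 (chromosome 17, 56100591 to 56109802), which coats small new droplets in fat cells, was close to the filter of 1 FPKM, at 1.31, 1.85 and 0.661 in WT against 0.809, 1.86 and 0.841 in KO. Its log2 difference of -0.07 turned positive without WT replicate 2 (0.11), KO replicate 1 (0.05) or KO replicate 3 (0.04). The model of Plin4 overlaps that of Hdgfrp2 by a few bases. Plin3 (chromosome 17, 56278962 to 56290511), the widely expressed perilipin that moves between cytosol and droplets, was 9.26, 7.06 and 9.65 FPKM in WT against 7.23, 8.31 and 8.79 in KO. It varied 1.37-fold over the 6 libraries, the narrowest span of the 4 perilipins, and its 95% interval ran from -0.46 to 0.31.

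The CIDE genes stood at opposite ends of the spread between libraries. Cideb (chromosome 14, 55754055 to 55758424), the hepatocyte member that works in the loading of fat onto very-low-density lipoprotein, was 118, 115 and 117 FPKM in WT against 110, 108 and 105 in KO. Its pooled standard deviation within genotypes, 0.0279 on the log2 scale, ranked 3 from the smallest among 10956 genes. All KO libraries lay below all WT libraries, by a mean ratio of 0.925. The log2 difference of -0.11 had an adjusted p of 0.727 in limma, which draws the variance of a gene toward that of others of like level, so that the standard error was 0.15. After median-of-ratios rescaling of the libraries the difference was -0.27 and the groups still did not overlap, with 128, 123 and 118 in WT against 105, 99.7 and 101 in KO. The locus overlaps that of Nop9, which averaged 5.21 FPKM, and reads from the shared stretch cannot be divided between them.

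Cidec (chromosome 6, 113424636 to 113435755), also called Fsp27, drives the fusion of droplets into larger ones and is low in lean liver. It was 1.36, 1.48 and 0.196 FPKM in WT against 0.763, 10.7 and 0.708 in KO. KO replicate 2 alone stood above WT, and the KO mean was 4.01 times the WT mean with it and 0.728 times without it, where the log2 difference was -0.14 in place of 0.78. Only through that library did Cidec pass the filter on low values. Its relative Cidea, in the list of other droplet proteins, was under the filter, at 0.769 FPKM in WT replicate 2, 0.0764 in WT replicate 3 and listed at 0 in the other libraries.

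Pnpla2 (chromosome 7, 141455188 to 141460743) was 20.5, 18.6 and 12.7 FPKM in WT against 13.7, 26.8 and 18.4 in KO. Its log2 difference of 0.15 equals the median of all genes to 2 decimals, and its 95% interval ran from -0.52 to 0.82. The sign turned under 4 of 15 alternatives, among them leaving out KO replicate 2 (-0.09) or WT replicate 3 (-0.04). Its activator Abhd5, named with its inhibitor G0s2 after their values were seen, was 6.76 ± 1.45 FPKM in WT against 7.55 ± 1.28 in KO. G0s2 was 51.3, 28.8 and 19.4 FPKM in WT against 25.3, 120 and 14.6 in KO, again with the highest value in KO replicate 2.

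Cd36 (chromosome 5, 17781690 to 17888959), which encodes the membrane receptor for long-chain fatty acids and oxidised lipoproteins, is made by hepatocytes, endothelium and macrophages. It was 10.3, 8.19 and 4.88 FPKM in WT against 7.60, 23.2 and 5.48 in KO. The KO mean was 1.55 times the WT mean with KO replicate 2 and 0.840 times without it, and the log2 difference went from 0.38 to -0.18. With all libraries the adjusted p was 0.728 in limma and the 95% interval ran from -0.82 to 1.58.

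In order of level, Plin2 led in WT with 170 FPKM, followed by Cideb with 117, Hsd17b13 with 72.6, Plin5 with 19.2, Pnpla2 with 17.3, Plin3 with 8.66, Cd36 with 7.78, Pparg with 4.75, Plin4 with 1.27 and Cidec with 1.01. Neighbours in this order whose WT ranges overlapped were Plin2 and Cideb, Plin5 and Pnpla2, Plin3 and Cd36, Cd36 and Pparg, and Plin4 and Cidec. In KO the order began with Hsd17b13 at 234, Plin2 at 172 and Cideb at 108 FPKM, and Pparg came last at 0.981. Among KO neighbours only Cideb and Pnpla2 had ranges that did not overlap.

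Several droplet genes had their extremes in the same libraries. In 6 of the 10, Plin2, Plin4, Plin5, Cidec, Pnpla2 and Cd36, WT replicate 3 was the lowest WT library and KO replicate 2 the highest KO library, against 14.0% of all genes tested. The pattern was picked out after the values were seen. Hsd17b13 had the reverse one, with WT replicate 3 highest and KO replicate 2 lowest in its genotype, as had 19.5% of all genes. The ratio of Plin2 to Hsd17b13 accordingly ranged from 6.30 in WT replicate 2 to 0.206 in KO replicate 3. The standard deviation within genotypes was above the median of all genes for 8 of the 10, the exceptions being Plin3 and Cideb. WT replicate 3 and KO replicate 2 also stood apart in the cycling-cell genes, with the highest sum in WT and the lowest in KO. The part of cell division in the levels of the droplet genes was not tested.

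**Figure D3:**
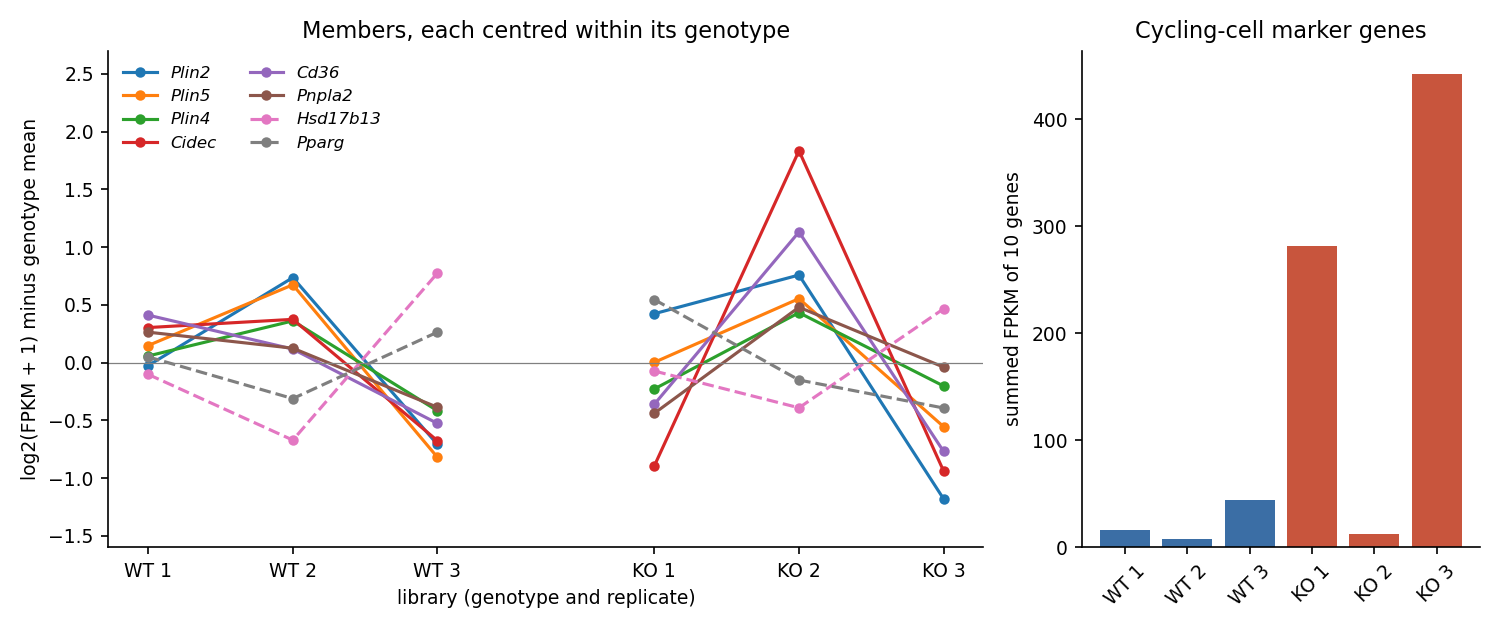
Left, log2(FPKM + 1) of 8 of the genes minus the mean of their genotype (y axis) in each library (x axis), where lines join the values of 1 gene within a genotype and have no meaning as an order. The 6 genes with solid lines are lowest in WT replicate 3 and highest in KO replicate 2, and Hsd17b13 (dashed) does the reverse. Right, summed FPKM of 10 cycling-cell marker genes in each library, from 7.39 in WT replicate 2 to 442 in KO replicate 3.

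Of 73 other tested genes of the lipid lists, 16 also had WT replicate 3 as the lowest WT library and KO replicate 2 as the highest KO library. This was 21.9% of them, beside 14.0% of all genes. Among these 16, chosen after their values were seen, was Angptl4, a secreted inhibitor of lipoprotein lipase, which ran from 36.0 to 122 FPKM in WT and from 52.4 to 116 in KO. Fabp1, the main fatty acid carrier protein of hepatocytes, was 4327, 5730 and 3589 FPKM in WT against 5568, 6246 and 2176 in KO. Both had their lowest value of each genotype in replicate 3, as Plin2 did.

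Among other proteins of lipid droplets, 17 of the 20 listed genes were tested and 0 passed the adjusted threshold in limma. At an unadjusted p under 0.05, 3 were lower and 1 higher in KO, beside 3.99% of all genes lower and 11.2% higher. The lower ones were Spg20, Mettl7b and Fitm2, and for each of these the KO libraries lay below all WT libraries. Of the 17 genes, 5 had all KO libraries below all WT libraries and 1 had them above. Over all genes the shares were 5.44% and 16.7%. These counts and shares are for the values as deposited and were not taken after rescaling, which moved the balance of directions over all genes. Mettl7b, a methyltransferase-like protein of droplets, was 447, 435 and 409 FPKM in WT against 336, 322 and 269 in KO (log2 difference -0.48, SE 0.18). Fitm2, which acts in the budding of droplets from the endoplasmic reticulum, was 12.6 ± 1.32 and 9.57 ± 0.770 FPKM, and Spg20, which encodes spartin, was 8.95 ± 0.628 and 6.70 ± 0.758. Mettl7a1 was the higher one, with 36.5 ± 7.90 FPKM in WT against 53.7 ± 9.67 in KO. The adjusted p of these 4 lay between 0.306 and 0.325.

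Of the genes of lipolysis and its control, 12 of 13 were tested, and the widest differences pointed in opposite directions. In limma 0 passed the adjusted threshold. At an unadjusted p under 0.05 there was 1 above WT, Lpl, and 1 below, Ces1f, beside 11.2% and 3.99% of all genes. All KO libraries lay above all WT libraries for 2 of the 12 and below for 1, beside 16.7% and 5.44% of all genes. Lpl, lipoprotein lipase, was 1.61, 3.10 and 3.86 FPKM in WT against 25.3, 10.3 and 20.2 in KO, with an adjusted p of 0.123 in limma. It passed the threshold only with array weights (adjusted p = 0.0408) and without KO replicate 2 (adjusted p = 0.0206). Over all 15 alternatives the adjusted p of Lpl in limma ran from 0.0206 to 0.410, the highest without WT replicate 1. Ces1f is a carboxylesterase with close relatives beside it, among which reads may be divided wrongly. It was 24.4, 26.4 and 28.7 FPKM in WT against 6.98, 0.101 and 1.07 in KO. Its adjusted p in limma was 0.136, and it passed the threshold only without KO replicate 1 (adjusted p = 0.0229). Over all 15 alternatives the adjusted p of Ces1f ran up to 0.457, without WT replicate 1. Abhd6, a monoacylglycerol lipase, was 9.96 ± 0.144 FPKM in WT against 14.5 ± 3.80 in KO, and Ces1g was 18.6 ± 10.3 and 35.4 ± 18.7. The list's median log2 difference was 0.10, beside 0.15 for all genes.

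Of 12 triglyceride synthesis genes, 9 were tested. In limma 0 passed the adjusted threshold and 0 an unadjusted p of 0.05, which 15.2% of all genes passed. The median log2 difference was 0.04, beside 0.15 for all genes. Dgat2, the main enzyme of the last step of triglyceride synthesis in liver, was 97.1, 78.8 and 85.6 FPKM in WT against 73.5, 103 and 59.0 in KO. Dgat1 ran from 3.33 to 5.44 FPKM in WT and from 4.37 to 8.07 in KO. The means of the other named genes, with WT first, were 68.0 ± 6.94 and 91.3 ± 29.7 FPKM for Agpat2, and 20.9 ± 0.527 and 23.4 ± 2.31 for Agpat6.

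For uptake and activation of fatty acids, 12 of 14 genes were tested, with 0 past the adjusted threshold in limma and 1 in each direction at an unadjusted p under 0.05. These 2 of 12 stand beside 15.2% of all genes at that threshold, so the count is near the background. Acsl4, an acyl-CoA synthetase that prefers arachidonic acid, was 28.0, 26.3 and 33.1 FPKM in WT against 22.5, 17.9 and 16.8 in KO (adjusted p = 0.242). Acsl1, the main acyl-CoA synthetase of liver, was 121 ± 25.3 and 73.0 ± 34.3, and Got2 was 167 ± 22.2 and 226 ± 34.4. Fabp4 was the other, with the values given among the fat-cell markers.

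Of 15 target genes of PPAR-gamma known from fat cells and fatty liver, 9 were tested. None passed the adjusted threshold in limma, and at an unadjusted p under 0.05 there were 2 of 9 above WT, Lpl and Fabp4, and 0 below, against 11.2% and 3.99% of all genes. The median log2 difference was 0.10, with 4 genes above and 5 at or below that of all genes. Mogat1, a monoacylglycerol acyltransferase of fatty liver, was under the filter, at 0.0883, 0.221 and 0.0732 FPKM in WT against 0.0815, 1.03 and 0.212 in KO. Adipoq and Plin1 were listed at 0 in all libraries. Several genes stand in more than 1 list.

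**Figure D4:**
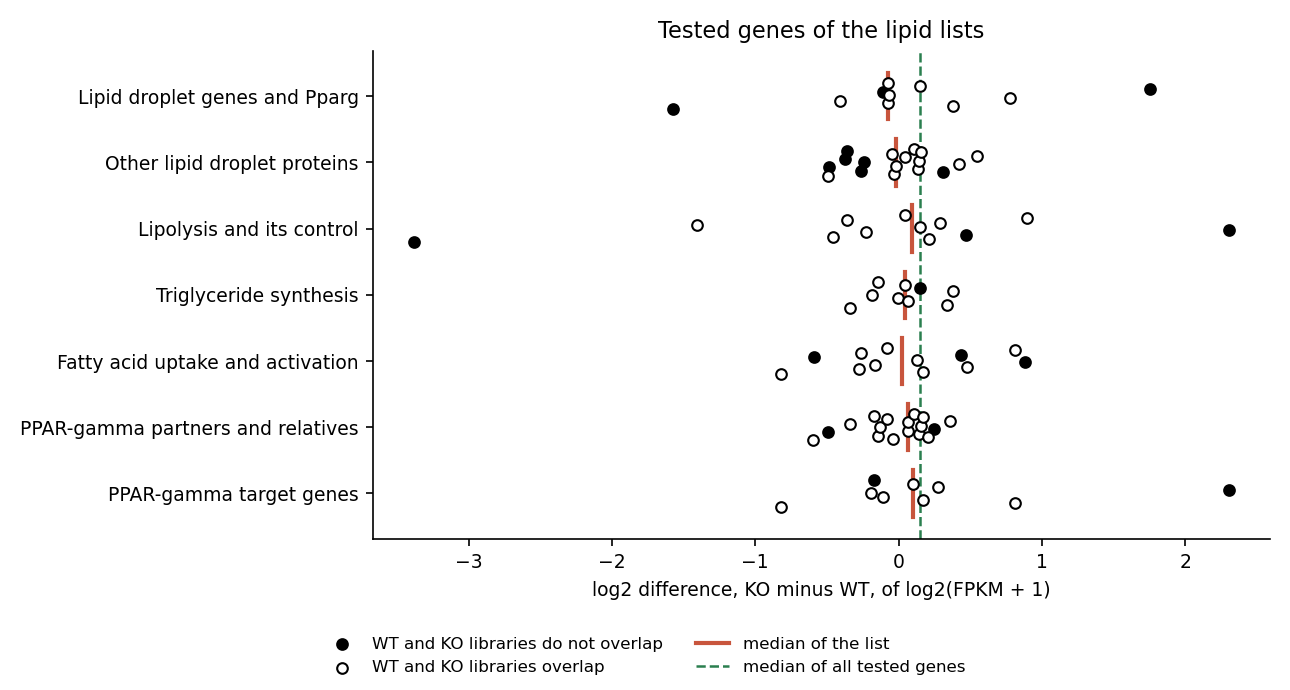
Log2 difference of KO minus WT (x axis) of each tested gene of the members and of the 6 lipid lists (rows), with filled points where KO and WT libraries do not overlap, red bars at the list median and a dashed line at the median of all tested genes, 0.15. List medians lie between -0.07 and 0.10, and Ces1f, Lpl, Hsd17b13 and Pparg are the genes farthest from 0.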

How the data were processed

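The 6 RNA-seq libraries came from frozen liver, 3 per genotype. The values are FPKM as the authors deposited them, per the file headers. The coordinates of the loci match gene models on mm10. TopHat, edgeR, mm9 and mm10 are named without roles in the submitters' processing notes. The tool that wrote the FPKM, the filter on loci and the strandedness used were not given in the sources used here. Because FPKM is relative to the library total, a shift in abundant transcripts moves all other genes.

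Of 23847 loci, 312 marked LOWDATA were left out, and the floor of 0.001 was set to 0. The 10956 genes that averaged 1 FPKM or more were compared as log2(FPKM + 1), which understates changes of low genes, in limma 3.58.1 (R 4.3.3; two-sided, mean-variance trend, genotype as the only term, Benjamini-Hochberg over all genes, called at an adjusted p under 0.05). The procedure was tested on simulated data. Single genes were also compared by an exact permutation test over 20 assignments. The members and lists were chosen with earlier results of these data known. Named genes are the members, Arid1a, the 4 smallest p of each list, and the 5 genes most like Pparg, which also had the smallest p of the members. Of these, 2 genes are not reported here. Genes outside this rule are marked as named after their values were seen. Of 146 listed and marker genes, 2 were matched by a synonym in RefSeq GRCm38.p6. Relative depth came from ratios of values under 0.3 FPKM. Alternatives were other pseudocounts (0.1, 0.5), filters (none, 5 FPKM), scalings and variance models, a replicate block and leaving out each library.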

Additional observations from a re-analysis of the deposited data

How the results depend on the processing

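With any of the 15 alternatives the number of lipid droplet genes past the threshold in limma was 0, and 2 of the genes tested, or 1 of 7 with a filter at 5 FPKM, were at an unadjusted p under 0.05. The number of all genes past the threshold, 13, was 6 with no filter, 5 with a filter of 5 FPKM and 29 with array weights. With 1 library left out it ranged from 0 (without WT replicate 1, where 650 genes were higher and 290 lower at an unadjusted p under 0.05) to 211 (without KO replicate 2), and it was 2 and 3 without WT replicates 2 and 3, and 11 and 1 without KO replicates 1 and 3. The labels do not state whether the replicate numbers pair the samples, and 3 libraries per genotype cannot decide it. The deviations of same-numbered libraries from their genotype means correlated at -0.084, 0.155 and 0.163. Those of libraries with different numbers correlated at between -0.263 and 0.175. With the replicate block 47 genes passed, none of them a lipid droplet gene. WT replicate 1 correlated best with KO replicate 2. Median-of-ratios rescaling gave 0 higher and 13 lower calls in place of 2 and 11, and it moved the median of all genes from 0.15 to 0.01.

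With 1 library left out, Plin2 ranged from -0.46 to 0.51, Plin4 from -0.28 to 0.11, Cidec from -0.14 to 1.25, Pnpla2 from -0.0884 to 0.37, Cd36 from -0.18 to 0.77 and Dgat2 from -0.39 to 0.000716. Pnpla2 was -0.0169 after quantile normalization and -0.0670 with array weights, Cd36 -0.0318 with array weights, and Agpat6 -0.00337 and -0.0117 after median-of-ratios and quantile scaling. The cause was not tested. Pparg and Plin4 fall under a filter of 5 FPKM, as does Cidec. Values under about 0.3 FPKM rest on a few reads.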
